A study of Mus musculus with 12 samples.

Results

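The genes described here encode the proteasome of mouse liver: all protein-coding genes whose symbols start with Psma, Psmb, Psmc or Psmd and a digit, apart from Psmb8 and Psmb9. This rule found 38 genes among 55487 annotated genes, of which 21936 were protein-coding. By role, 31 encode constitutive structural subunits, namely 7 of the alpha ring and 7 of the beta ring of the core, 6 ATPases, 3 further proteins of the base (Psmd1, Psmd2 and Psmd4) and 8 of the lid. The remaining 7 are Psmb10, Psma8 and Psmb11, which replace a constitutive core subunit in particular cells, the assembly chaperones Psmd5, Psmd9 and Psmd10, and Psmc3ip, a meiotic recombination factor that shares the symbol's start but is not a subunit. The proteasome degrades proteins that carry ubiquitin chains: the regulatory particle (lid, base and ATPase ring) binds, deubiquitinates and unfolds the substrate, and the barrel-shaped core cleaves it in a chamber lined by the beta subunits. The catalytic sites belong to Psmb6 (caspase-like), Psmb7 (trypsin-like) and Psmb5 (chymotrypsin-like). In liver the system removes damaged and short-lived proteins and supplies amino acids, and its subunit genes are known to be induced together by the transcription factor Nfe2l1 when proteasome capacity falls short.

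RNA came from frozen livers of 12 male mice aged 16 to 18 months, with 4 groups of 3. Cre-negative mice with floxed Foxo3 served as controls, and mice labelled knockout were Foxo3 flox/flox with Alb-cre, a Cre driven by the albumin promoter and so active in hepatocytes. Each genotype was sampled fed ad libitum or after an overnight fast. Poly(A) libraries held 17520058 to 22414976 counts, which gave 646 to 4328 counts for each constitutive subunit in each library. Levels are CPM, counts per 1000000 after trimmed mean of M values (TMM) scaling, or TPM, which also divides by gene length and is used where genes are compared with each other. Changes are log2 fold changes with their standard error (SE) from edgeR's quasi-likelihood test, and "passed the threshold" means a Benjamini-Hochberg adjusted p of at most 0.05 over all 15862 tested genes. Of the 38 genes, 37 had enough counts to be tested. The labels do not say whether the animals of a group came from separate litters or days, so p-values measure the spread between these samples, and days or cohorts cannot be told apart from the groups. In bulk tissue, fewer cells of a type and less RNA per cell cannot be told apart either.

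Foxo3 itself was not lower in the libraries labelled knockout. Its values there lay above those of controls in fed livers (58.8 to 62.2 against 44.5 to 50.4 CPM) and in fasted livers (46.6 to 53.6 against 38.1 to 44.3 CPM). Of all tested genes, 6.3% in fed and 6.82% in fasted livers had knockout libraries all above control ones. A gene-level count includes exons outside a floxed segment, so it does not check the genotype, and "knockout" below means labelled so. Summed hepatocyte markers (Alb, Apoa1, Ttr, Serpina1c, Cyp2e1 and Cps1) lay between 63970 and 114220 CPM in every library, against 229 to 510 CPM for 7 macrophage markers and 2.07 to 14.5 CPM for 6 T and NK cell markers. Fed control replicate 3 stood apart from the remaining libraries in 10 interferon response genes (472 against 129 to 247 CPM in sum) and 5 stellate cell and fibrosis genes (532 against 120 to 278 CPM). Fasted control replicate 3 stood apart in 4 B and plasma cell markers (1330 against 4.95 to 23.8 CPM). Leading counts are therefore also given without such libraries.

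The promoters of the 4 members with the smallest p in fasted against fed controls are printed here because these genes lead the fasting comparison. RefSeq promoter windows (250 bases before to 50 bases after the annotated start, build GRCm38.p6) were matched by symbol for 31 of the 38 genes, and letters in capitals mark matches to the motifs named below. The windows are Psma7 (chr2:180042415-180042714, minus strand), Psmd9 (chr5:123227940-123228239, plus strand), Psmc4 (chr7:28050043-28050342, minus strand) and Psmb3 (chr11:97703184-97703483, plus strand).
Psma7: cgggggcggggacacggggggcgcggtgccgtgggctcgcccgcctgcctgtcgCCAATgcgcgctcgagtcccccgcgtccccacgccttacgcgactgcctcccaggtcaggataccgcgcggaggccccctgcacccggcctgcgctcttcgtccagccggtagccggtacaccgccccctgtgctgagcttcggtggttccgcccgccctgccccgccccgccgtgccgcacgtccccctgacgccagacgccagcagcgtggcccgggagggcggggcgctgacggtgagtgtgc
Psmd9: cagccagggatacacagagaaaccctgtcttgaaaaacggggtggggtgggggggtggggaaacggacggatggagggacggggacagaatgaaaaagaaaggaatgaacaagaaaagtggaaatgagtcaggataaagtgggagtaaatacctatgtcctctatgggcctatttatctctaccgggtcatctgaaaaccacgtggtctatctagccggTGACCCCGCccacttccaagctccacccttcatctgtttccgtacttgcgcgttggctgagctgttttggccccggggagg
Psmc4: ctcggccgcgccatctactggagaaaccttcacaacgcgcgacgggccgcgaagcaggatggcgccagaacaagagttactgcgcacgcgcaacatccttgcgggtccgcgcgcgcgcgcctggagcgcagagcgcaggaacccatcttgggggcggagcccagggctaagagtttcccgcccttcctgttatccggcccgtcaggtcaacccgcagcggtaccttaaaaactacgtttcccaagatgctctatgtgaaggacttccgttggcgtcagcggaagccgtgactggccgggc
Psmb3: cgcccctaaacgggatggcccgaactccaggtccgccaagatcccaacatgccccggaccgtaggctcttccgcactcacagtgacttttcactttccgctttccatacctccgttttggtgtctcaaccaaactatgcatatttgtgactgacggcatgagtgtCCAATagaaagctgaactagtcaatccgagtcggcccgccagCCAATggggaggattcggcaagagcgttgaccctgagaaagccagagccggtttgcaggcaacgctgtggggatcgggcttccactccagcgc
The motifs below were searched on both strands. The antioxidant response element (TGACNNNGC), a sequence of the kind that Nfe2l1 binds, occurred in 4 of the 25 constitutive subunit promoters found (16%: Psmb5, Psmb6, Psmc6 and Psmd12), against 12.4% of all 32851 promoter windows, and also in that of Psmd9. The CCAAT box (CCAAT) occurred in 10 of 25 (40%), against 37.4% of all windows, with 1 match in the Psma7 window, 2 in the Psmb3 window and none in that of Psmc4. The FoxO motif TGTTTAC occurred in 0 of 25, against 3.65% of all windows. GC content of the 25 windows had a median of 56.7%, against 52.7% over all windows, and ran from 46.7% (Psma6) to 77% (Psma7). A match is a run of letters and not a measured binding site.

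The constitutive subunits were transcribed at similar, high levels. Their mean over the 12 libraries ran from 32.4 TPM for Psmd1, a base scaffold, to 186 TPM for Psma6, an alpha ring subunit, a ratio of 5.75, and their median was 66.4 TPM against 6.81 TPM over all tested genes. In the alpha ring, which gates the entry to the chamber, Psma2 was lowest (39.5 TPM), followed by Psma3, Psma7, Psma1, Psma5, Psma4 and Psma6. In the beta ring the range was narrower, from Psmb1 (52 TPM) to Psmb4 (149 TPM), with Psmb3, Psmb2 and the catalytic Psmb7, Psmb6 and Psmb5 between them in rising order at 57.1, 81.1, 86.3, 106 and 117 TPM. The ATPases that unfold the substrate ran from Psmc2 (35.1 TPM) over Psmc6, Psmc4, Psmc3 and Psmc5 to Psmc1 (141 TPM). In the base, Psmd2, which docks ubiquitin shuttle factors, stood at 112 TPM and the ubiquitin receptor Psmd4 at 75.2 TPM. The lid ran from Psmd11 (33.4 TPM) to Psmd8 (80.8 TPM), with the deubiquitinase Psmd14 at 44 TPM and Psmd13, Psmd3, Psmd6, Psmd12 and Psmd7 at 42.4 to 66.4 TPM. The chaperones, which hold base subunits during assembly and leave the finished particle, were lower, at 11.5 TPM (Psmd5), 11.6 TPM (Psmd9) and 17.7 TPM (Psmd10). The deposited TPM values use the full exonic length of all annotated transcripts of a gene, which is 7248 bases for Psmd9 and 7265 for Psmd1, so genes with long alternative transcripts read low on this scale.

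**Figure D1:**
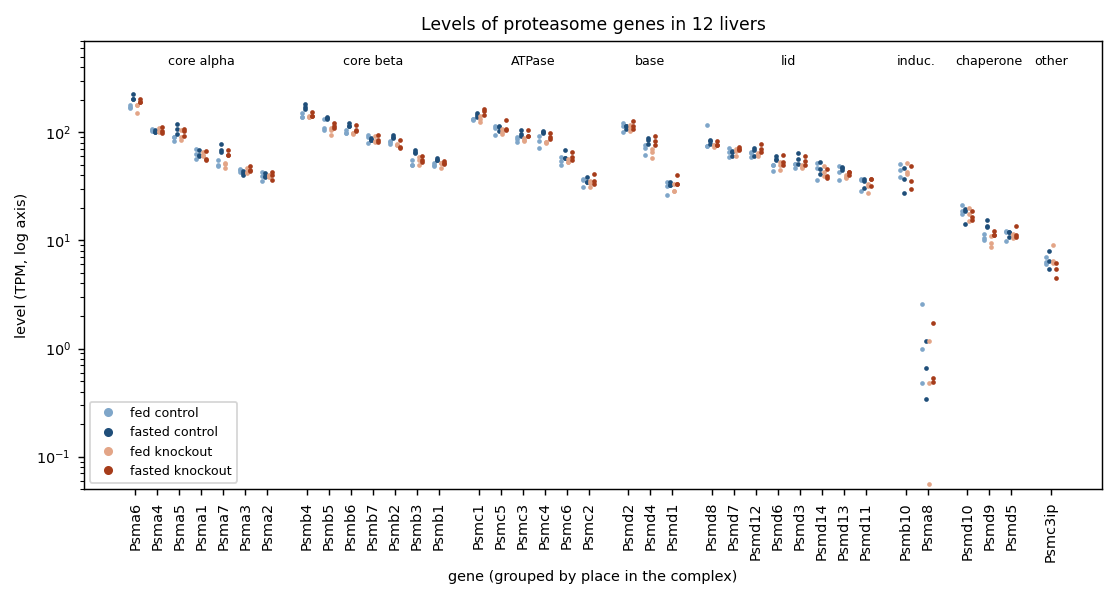
Level of each gene in TPM (log axis) in every library, by place in the complex, with 1 point per library and colours for the 4 groups. The 31 constitutive subunits sit between a mean of 32.4 TPM (Psmd1) and 186 TPM (Psma6), Psma8 has a mean of 0.892 TPM, and Psmb11, with 0 counts, is not drawn.

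The cell-type-specific core subunits gave a different picture. Psmb10, the inducible form of the trypsin-like subunit, was present at 41.1 TPM on average and made up 33.7% ± 4.2 (SD, n = 3) of the summed TPM of Psmb10 and Psmb7 in fed and 29.8% ± 5.7 in fasted controls, and 34.6% ± 3.8 in fed and 30.3% ± 6.3 in fasted knockouts. These shares overlapped between all groups. Psma8, the germ cell form of Psma7, had 1 to 49 counts per library and a mean of 0.892 TPM, and Psmb11, the thymic catalytic subunit, had 0 counts in every library, which allows up to 0.171 CPM in the shallowest. Psmc3ip had a mean of 6.42 TPM.

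Replicates of a constitutive subunit differed little. The standard deviation of log2 CPM within groups had a median of 0.13 (0.09 for Psmb5, the smallest, to 0.18), against 0.23 over all tested genes and 0.14 over the 2760 tested genes with means in the same range of 39.6 to 184 CPM. In CPM, most subunits also deviated in the same direction within some libraries. In fasted control replicate 2 and fasted knockout replicate 3, 30 of 31 constitutive subunits were above their own 12-library mean CPM (median log2 deviations 0.24 and 0.21). In the other fasted libraries 17 and 18 (control) and 8 and 10 (knockout) were above. In fed livers 19, 3 and 2 were above in control replicates 1 to 3 and 3, 1 and 14 in knockout replicates 1 to 3. The share of all tested genes above their own mean in each library was not counted. The TMM factor was lowest in fasted control replicate 2 (0.923) and fasted knockout replicate 3 (0.943) and highest in fed control replicate 3 (1.12). Fed knockout replicate 1 had a factor of 0.945, close to that of fasted knockout replicate 3, but 3 subunits above their mean. The part of scaling in this pattern was not tested. These counts of subunits depended on the scale. In TPM, fasted control replicate 2 had 24 subunits above their mean (median deviation 0.11) and fasted knockout replicate 3 had 30 (0.15). Fed control replicate 3 went from a median deviation of -0.20 in CPM to 0.03 in TPM, where 19 subunits were above their mean, and fasted knockout replicate 1 went from 8 to 19 subunits, fasted control replicate 1 from 18 to 23, fasted control replicate 3 from 17 to 23 and fed control replicate 1 from 19 to 12. In CPM, the lid subunit Psmd8 went against most others in fed control replicate 3, with 124 CPM (log2 deviation 0.32). Psmd14 was also above its mean there (0.04), while Psma7, Psmb3 and Psmb4 were at their lowest.

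**Figure D2:**
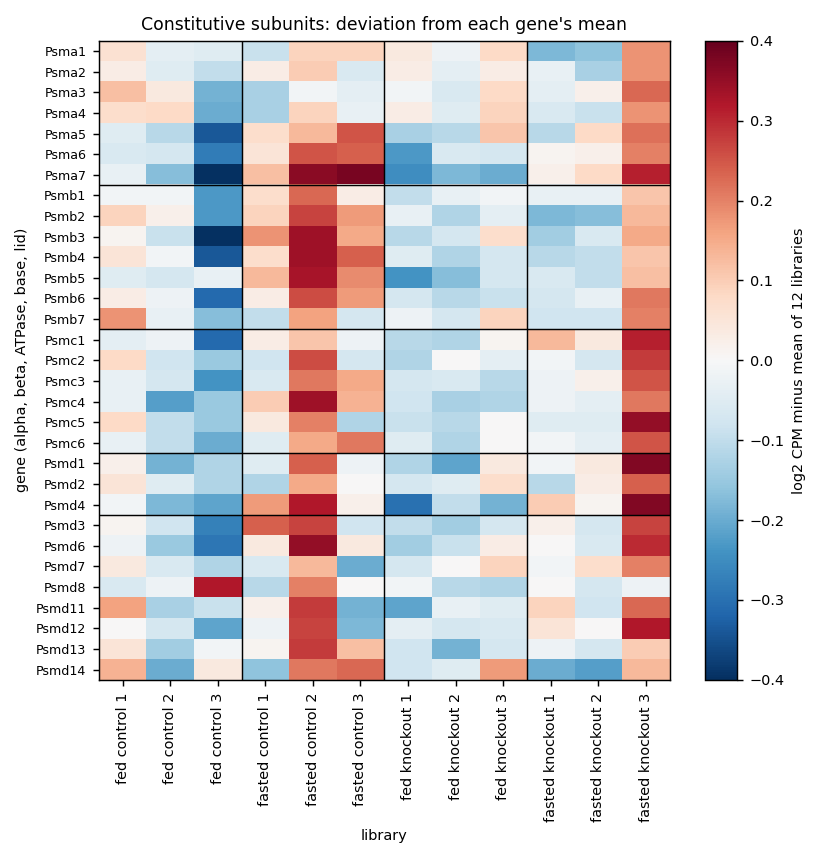
Colour shows log2 CPM of each of the 31 constitutive subunits (rows, by subcomplex) minus its mean over the 12 libraries (columns, by group), from blue (lower) to red (higher). Fasted control replicate 2 and fasted knockout replicate 3 are red for 30 of 31 rows, and fed control replicate 3 is blue for all but Psmd8 and Psmd14.

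In fasted against fed controls, Psma7 and Psmd9 rose past the threshold and the other 35 tested members did not. Psma7 (ENSMUSG00000027566; chromosome 2, 180036374 to 180042433, mm10), an alpha ring subunit, stood at 71, 64.3 and 52.9 CPM in fed and at 78.5, 93.2 and 94.3 CPM in fasted control livers. Every fasted control library was above every fed one, and the gene rose 1.41-fold (log2 0.50, SE 0.12, edgeR adjusted p = 0.037). Psmd9 (ENSMUSG00000029440; chromosome 5, 123169413 to 123250131), a chaperone that helps to join ATPases into the base, stood at 34.7, 31.5 and 26.7 CPM in fed and at 38.3, 42.7 and 44.1 CPM in fasted control livers. These groups did not overlap either, and Psmd9 rose 1.35-fold (log2 0.43, SE 0.11, edgeR adjusted p = 0.045). They are 2 of 37 tested members, or 5.41%, beside 4.14% of all tested genes called in either direction and 2.05% called higher, and 0 members fell (2.09% of all genes), so the count of calls was near the background. DESeq2 called the same 2 members (7.22% of all genes).

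Over all 37 tested members, Psma7 and Psmd9 included, more values lay above 0 than below. The log2 change was above 0 for 31 of them, against 49.5% of all tested genes, and 14 members had fasted libraries all above the fed ones, against 11.5%, with 0 the other way (10.9%). The median was 0.15 over the members and 0.17 over the constitutive subunits, against -0.00 over all tested genes. Since the subunits vary together between libraries, these counts are not counts of independent genes. At an unadjusted p under 0.05 there were 11 members, against 19.4% of all genes.

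By subcomplex, the beta ring had a median log2 change of 0.25, the ATPase ring 0.19, the base 0.15, the lid 0.11 and the alpha ring 0.07. In the beta ring 6 of 7 subunits had fasted libraries all above the fed ones, against 11.5% of all tested genes. As subunits vary together between libraries, these are not 6 independent results. They were Psmb3 at 0.38 (SE 0.12, edgeR adjusted p = 0.096), Psmb4 at 0.31, Psmb5 at 0.27, Psmb6 at 0.25, Psmb2 at 0.21 and Psmb1 at 0.19. The seventh, the trypsin-like Psmb7, was at 0.00 (95% interval -0.26 to 0.26). The alpha ring was divided, with Psma7, Psma6 (0.32) and Psma5 (0.32) on one side and Psma1, Psma2, Psma3 and Psma4 between -0.05 and 0.07 on the other. Among the ATPases, Psmc4 had the largest value, 0.33 (SE 0.10, edgeR adjusted p = 0.094), and Psmc1, Psmc2, Psmc3, Psmc5 and Psmc6 lay between 0.09 and 0.22. In the base and lid, Psmd4, Psmd6 and Psmd3 were at 0.30, 0.30 and 0.26, while Psmd1, Psmd2, Psmd7, Psmd8, Psmd11, Psmd12, Psmd13 and Psmd14 lay between -0.06 and 0.17. Psmb10 was at -0.25 (95% interval -0.66 to 0.17), opposite in sign to its constitutive partner's ring, and Psma8 at -0.79 (-2.50 to 0.92). None of the genes in this paragraph other than Psma7 passed the threshold.

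The calls in controls lay close to the threshold, and leaving out 1 library changed their count in 11 of 12 runs. Without fed control replicate 3, the library with high interferon and stellate cell transcripts, 0 members passed and Psma7 and Psmd9 were at 0.39 and 0.33 (edgeR adjusted p = 0.096 and 0.13), while 29 members were above 0 with a median of 0.11. Without fasted control replicate 2, 0 members passed, 24 were above 0 and the median was 0.05. Without fasted control replicate 3, the library with high plasma cell transcripts, Psma7 and Psmd9 were at 0.45 and 0.39 (edgeR adjusted p = 0.12 and 0.14). With all 12 libraries kept, fasted against fed controls had all 5 stellate cell and fibrosis genes below 0 (median -1.10). All 4 endothelial genes (median -0.27) and all 10 interferon response genes (median -0.52) were below 0 as well. All 4 B and plasma cell genes were above 0 (median 2.28), and edgeR called 0 of these genes. B and plasma cell sums were 17, 9.39 and 1330 CPM in fasted against 15.6, 23.8 and 10 CPM in fed controls. Interferon sums were 171, 171 and 217 CPM in fasted against 129, 148 and 472 CPM in fed controls. In these sums both directions rested on replicate 3. Stellate cell sums were 205, 140 and 155 CPM in fasted against 212, 241 and 532 CPM in fed controls. The part of these other transcripts in the result was not tested. The annotated span of Psmd9 contains Hpd, an abundant hepatocyte enzyme gene on the opposite strand, whose mean was 1742 CPM and whose change was 0.61 (edgeR adjusted p = 0.13). Both genes share 0 exonic bases in GENCODE vM21, but the RefSeq start of Psmd9 lies 58777 bases inside the 5′ end of that span, the strand setting of the counting is not given in the sources used here, and the part of Hpd reads in Psmd9 counts was not tested.

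Fasted against fed livers labelled knockout showed values of similar sign, and 0 of 37 members passed (2.48% of all tested genes did, 1.36% higher and 1.12% lower). DESeq2 also called 0 (4.72% of all genes), and 4 members had an unadjusted p under 0.05, against 14.6% of all genes. The leading gene was Psmd4, the ubiquitin receptor, at 69, 79.1 and 74.2 CPM in fed and 91, 85.6 and 110 CPM in fasted livers. All fasted values lay above all fed ones, with a log2 change of 0.36 (SE 0.12, edgeR adjusted p = 0.14). Psma7 stood at 61, 63.9 and 63.1 CPM in fed and at 73.7, 76.8 and 90.1 CPM in fasted livers, again without overlap (0.36, SE 0.12, edgeR adjusted p = 0.17). Psmd9 stood at 26.9, 31.9 and 28.1 CPM in fed and at 32.3, 35.9 and 34.7 CPM in fasted livers (0.24, SE 0.11, edgeR adjusted p = 0.32).

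Of the 37 members, 30 were above 0 in this comparison (49.2% of all genes), 9 had fasted libraries all above fed ones (11.5%) and 1, Psmc3ip, had them all below (11.8%). The median was 0.11. Here the regulatory particle had a median of 0.16 and the core of 0.06, and the beta ring alone of 0.05. Psmd14 was at -0.10, Psmb10 at -0.26 and Psmd5 and Psmd10 at 0.08 and -0.06. Without fasted knockout replicate 3, in which 30 of 31 subunits were high, 23 members were above 0 and the median was 0.03.

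**Figure D3:**
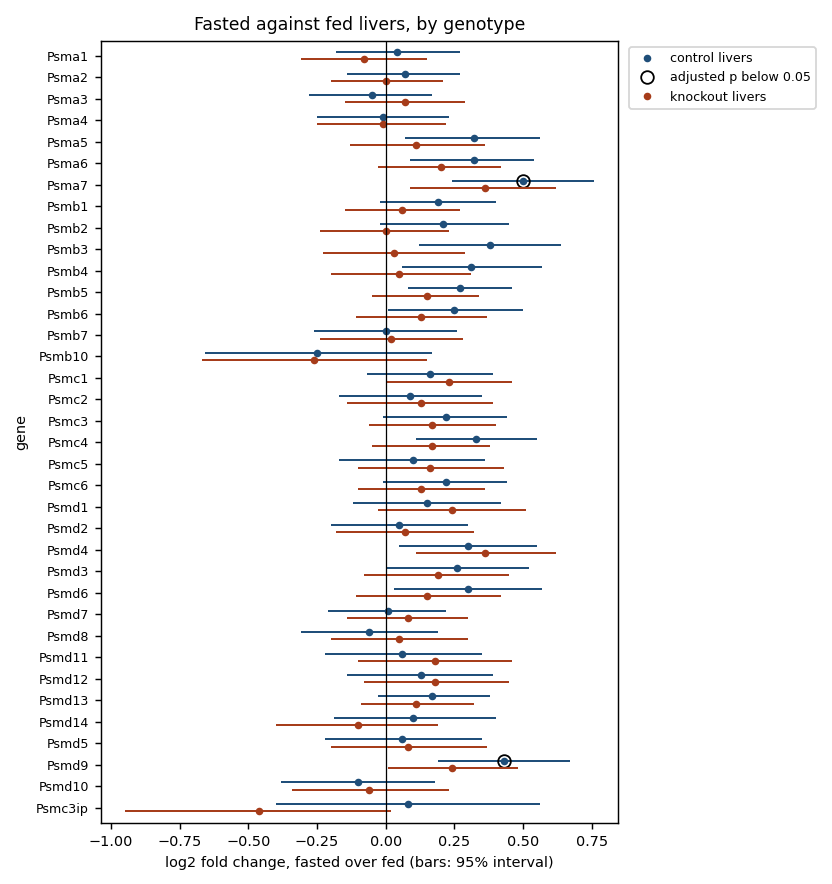
Points give the log2 fold change of fasted over fed livers for 36 genes in control (blue) and labelled knockout (red) livers, and bars the 95% interval from edgeR. Rings mark Psma7 and Psmd9 in controls, the values past the threshold, and Psma8, whose intervals reach -2.50 and 2.40, is not drawn.

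Averaged over both genotypes, a contrast added after the values for each genotype had been seen, 5 of 37 members rose past the threshold with fasting and 0 fell past it. Over all tested genes 9.07% were called, 4.55% higher and 4.52% lower. Psma7 was at 0.43 (SE 0.086, edgeR adjusted p = 0.0078) and Psmd9 at 0.34 (SE 0.078, edgeR adjusted p = 0.016). Psmd4 was at 0.33 (SE 0.082, edgeR adjusted p = 0.024), with 84.3, 75 and 73.6 CPM in fed and 95.3, 106 and 85.9 CPM in fasted controls. Psma6, the alpha ring subunit with the highest TPM, was at 0.26 (SE 0.073, edgeR adjusted p = 0.045). Its values were 89, 88.5 and 76.2 CPM in fed and 95.8, 110 and 110 in fasted controls, and 79, 88.8 and 88.6 CPM in fed and 93.2, 94.1 and 107 in fasted knockouts. For Psma7, Psmd4 and Psma6, each of the 6 fasted libraries was above each of the 6 fed ones. The share of all tested genes with such a separation was not counted, so how unusual it is cannot be read from these values.

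Psmc4, an ATPase, was at 0.25 (SE 0.072, edgeR adjusted p = 0.049), with 75.7, 66.5 and 69.3 CPM in fed and 82.6, 97.9 and 84.8 in fasted controls, and 72.9, 70.5 and 71 CPM in fed and 76, 75.1 and 89.4 in fasted knockouts. Its fed and fasted ranges touched between 75.1 and 75.7 CPM. DESeq2 called 6 members (10.9% of all genes), the 5 above and the chymotrypsin-like Psmb5 (0.21, adjusted p = 0.047 in DESeq2 and 0.057 in edgeR). By class, 2 of 7 alpha ring subunits, 0 of 7 beta ring subunits, 1 of 6 ATPases, 1 of 3 base proteins, 0 of 8 lid subunits and 1 of 3 chaperones passed the threshold in edgeR. All 7 beta ring subunits and 7 of 8 lid subunits were above 0 (48.4% of all genes), with medians of 0.18 and 0.13. The median over the members was 0.13, against -0.01 over all tested genes. Without fed control replicate 3 the count was 3 members, and without fasted control replicate 2 or fasted knockout replicate 3 it was 2, Psma7 and Psmd9 among them each time.

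**Figure D4:**
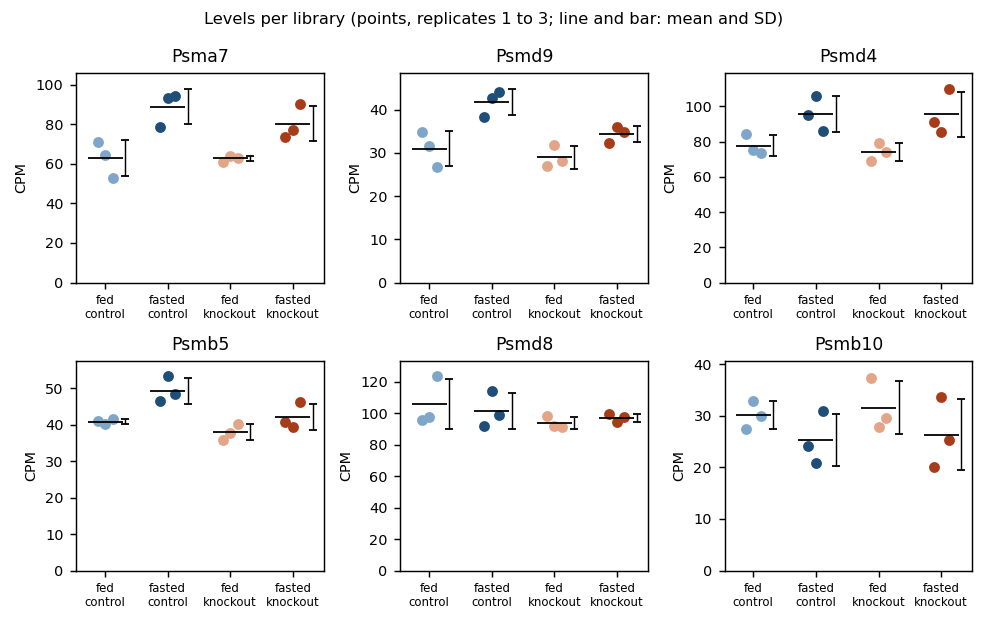
CPM in each library (points, replicates 1 to 3), with the mean (line) and SD (bar) of each group, for Psma7, Psmd9, Psmd4, Psmb5, Psmd8 and Psmb10, each axis starting at 0. All fasted points of Psma7 and Psmd4 lie above all fed points, Psmd8 has its highest point, 124 CPM, in fed control, and the Psmb10 groups overlap.

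The summed level of the 31 constitutive subunits gave the size of these shifts for the complex as a whole. It was 2330 ± 160 TPM (SD, n = 3) in fed and 2587 ± 42 in fasted controls, and 2271 ± 110 in fed and 2481 ± 160 in fasted knockouts. In controls the fasted sums (2559 to 2635 TPM) lay above the fed ones (2160 to 2468 TPM), and in knockouts the ranges were 2358 to 2667 and 2150 to 2370 TPM and overlapped. In TMM-scaled CPM the ranges overlapped in controls as well, at 2227 to 2566 fed and 2523 to 2927 fasted. The core made up 51.1% ± 1.4 of the TPM sum in fed and 52.4% ± 1.2 in fasted controls, and 51.4% ± 0.17 in fed and 50.3% ± 0.46 in fasted knockouts.

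Knockout against control in fed livers gave 0 of 37 members past the threshold, beside 0.0% of all tested genes. At an unadjusted p under 0.05 there were 0 members (6.12% of all genes), DESeq2 called 0 (0.246%), and 0 members had groups without overlap in either direction (6.3% higher and 5.99% lower over all genes). The constitutive subunits lay between -0.17 and 0.12 with a median of 0.02, and their 95% intervals reached from -0.42 to 0.38, that is from 0.75-fold to 1.3-fold. The member with the smallest p was Psmd8, at 95.5, 97.9 and 124 CPM in control and 98.6, 91.9 and 91.3 CPM in knockout livers. The log2 difference was -0.17 (edgeR adjusted p = 0.88) and, without control replicate 3, -0.05. Over the 37 members 24 were above 0 (48.0% of all genes), and 8 were without that library. Psma8, with 1.04, 0.514 and 2.22 CPM in control and 1.25, 0.0562 and 0.484 CPM in knockout livers, was at -1.06 (95% interval -2.81 to 0.70). Psmb5, with 40.9, 40.2 and 41.5 CPM in control and 35.9, 37.7 and 40.2 CPM in knockout livers, was at -0.11. The ranges of each of these genes overlapped or touched between genotypes.

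Knockout against control in fasted livers gave 0 of 37 members past the threshold by edgeR and by DESeq2, beside 0.0315% of all tested genes by edgeR (0.0252% higher and 0.0063% lower) and 0.303% by DESeq2. At an unadjusted p under 0.05, 3 members were found, against 9.01% of all genes. These were Psmb5 at -0.23 (SE 0.089, edgeR adjusted p = 0.53), Psmd9 at -0.28 (SE 0.11, edgeR adjusted p = 0.53) and the beta ring subunit Psmb2 at -0.25 (SE 0.11, edgeR adjusted p = 0.54). Psmb5 stood at 46.4, 53.3 and 48.4 CPM in control and at 40.7, 39.4 and 46.1 CPM in knockout livers, and Psmd9 also did not overlap. Psmb2 stood at 42.1, 47.7 and 44.2 CPM in control and at 34.8, 35.1 and 43.2 CPM in knockout livers, with overlap. Members with all knockout libraries lower numbered 2 of 37 (7.2% of all genes) and all higher 0 (6.82%).

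The beta ring had a median of -0.23 between fasted genotypes, while the alpha ring, ATPases, base and lid had medians of -0.08, 0.01, 0.05 and -0.06. The constitutive subunits as a whole had a median of -0.06, with 95% intervals from -0.50 to 0.36 (0.71-fold to 1.28-fold). Of the 37 members 14 were above 0 (47.9% of all genes), and 5 were without fasted knockout replicate 3. Averaged over feeding states, 0 members passed (0.0126% of all genes), DESeq2 called 0 (0.307%), and Psmb5 (-0.17, edgeR adjusted p = 0.60), Psmd9 (-0.19, edgeR adjusted p = 0.60) and Psmb2 (-0.14, edgeR adjusted p = 0.67) again had the smallest p. At an unadjusted p under 0.05 there were 2 members (7.91% of all genes).

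**Figure D5:**
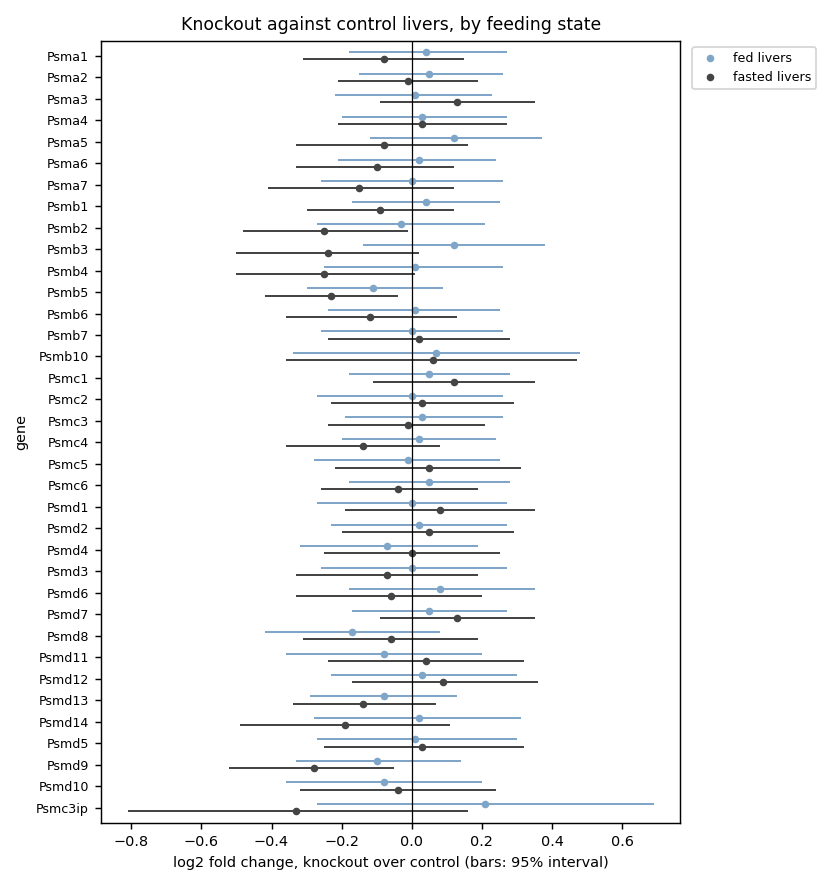
Points give the log2 fold change of labelled knockout over control livers for 36 genes in fed (light blue) and fasted (dark) livers, and bars the 95% interval from edgeR. Fed values of the constitutive subunits lie between -0.17 and 0.12, and the fasted beta ring has a median of -0.23.

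The difference between the fasting responses of both genotypes (knockout minus control) was tested directly as an interaction, and 0 of 37 members passed (0.0063% of all tested genes), with 0 members under an unadjusted p of 0.05 (7.19%) and DESeq2 calling 0 (0.354%). Psma7, past the threshold in controls and not in knockouts, had an interaction of -0.14 (95% interval -0.52 to 0.23, edgeR adjusted p = 0.92), and Psmd9 had -0.19 (-0.52 to 0.15, edgeR adjusted p = 0.86). The smallest p belonged to Psmb3, with 53.3, 49.5 and 39.5 CPM in fed and 60.1, 67.2 and 58.5 in fasted controls, and 48.9, 50.2 and 55.3 CPM in fed and 48, 50.8 and 58.6 in fasted knockouts (-0.36, SE 0.17, edgeR adjusted p = 0.70). Fed and fasted Psmb3 values were thus apart in controls and overlapped in knockouts. Psmb4, with 122, 117 and 93 CPM in fed and 123, 149 and 139 in fasted controls, and 113, 108 and 112 CPM in fed and 109, 110 and 127 in fasted knockouts, was at -0.26 (edgeR adjusted p = 0.81). Psmc3ip, with 5.32, 4.77 and 3.95 CPM in fed and 3.86, 5.2 and 5.74 in fasted controls, and 7, 4.67 and 4.58 CPM in fed and 4.38, 3.95 and 3.46 in fasted knockouts, was at -0.54 (edgeR adjusted p = 0.77). The core subunits had a median interaction of -0.12, with 12 of 14 below 0, and the regulatory particle of 0.04, with 7 of 17 below 0. Over the 37 members 15 were above 0, against 49.3% of all tested genes, and leaving out 1 library gave 7 to 18. Whether the core and the regulatory particle differ was not tested. The 95% intervals of the constitutive subunits reached from -0.72 at the lowest to 0.51 at the highest.

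Genes that work with the proteasome were read in lists chosen with earlier results of these data known. In the Nfe2l1 pathway, 2 of 11 rose past the threshold in fasted controls, beside 2.05% of all tested genes, and 0 fell past it. Of the 11 genes 6 were above 0 (49.5% of all genes), and the list's median was 0.03. At an unadjusted p under 0.05 there were 6, in either direction, against 19.4% of all genes. Syvn1, the ubiquitin ligase of the endoplasmic reticulum membrane, stood at 51.8, 47.4 and 47.2 CPM in fed and at 63.1, 77.7 and 94.1 CPM in fasted controls (0.68, SE 0.15, edgeR adjusted p = 0.023). Zfand2a, a proteasome-binding stress protein, stood at 10.1, 8.75 and 14.5 CPM in fed and at 15.3, 17.9 and 23 CPM in fasted controls (0.75, SE 0.19, edgeR adjusted p = 0.047). Neither gene's groups overlapped. DESeq2 called both and Ddi2 in this comparison. Averaged over genotypes, 4 of 11 rose past the threshold, beside 4.55% of all tested genes: Syvn1, Zfand2a, Nfe2l1 itself (0.40, SE 0.093, edgeR adjusted p = 0.017) and Ddi2, the protease that cuts Nfe2l1 into its active form (0.30, SE 0.077, edgeR adjusted p = 0.029). In that mean 8 of 11 were above 0 (48.4% of all genes), with a median of 0.12. Nfe2l1 stood at 134, 103 and 134 CPM in fed and 152, 167 and 138 in fasted controls, and 100, 110 and 122 CPM in fed and 141, 157 and 175 in fasted knockouts, where every fasted value was above every fed one of either genotype. In knockouts alone 0 of 11 passed by edgeR, with 2 at an unadjusted p under 0.05, Nfe2l1 (0.51, edgeR adjusted p = 0.065) and Zfand2a (0.68, edgeR adjusted p = 0.10), and DESeq2 called both.

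The ubiquitin and shuttle lists had 1 edgeR call each, both in the mean over genotypes. Ubb, a polyubiquitin gene, was the 1 of 6 ubiquitin and activating enzyme genes that rose (0.53, SE 0.11, edgeR adjusted p = 0.012). It stood at 275, 218 and 296 CPM in fed and 344, 423 and 339 in fasted controls, and 283, 218 and 227 CPM in fed and 304, 355 and 419 in fasted knockouts, again with all fasted values above all fed ones. Of 11 tested shuttle factors and p97 cofactors, which carry ubiquitinated proteins to the proteasome, 1 rose, Ubqln4 (0.39, SE 0.076, edgeR adjusted p = 0.0062), beside 4.55% of all tested genes called higher. All 11 were above 0 in controls (49.5% of all genes) and 10 of 11 in knockouts (49.2%), with medians of 0.15 and 0.16, and whether these genes vary together between libraries was not tested. DESeq2 also called Ubb and Ubqln4 in fasted against fed knockouts, where edgeR gave 0.57 (adjusted p = 0.096) and 0.44 (adjusted p = 0.053).

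Other partners of the proteasome gave few calls. Over all tested genes, edgeR called 0.0% to 9.07% per comparison and DESeq2 0.246% to 10.9%. An unadjusted p under 0.05 was found for 6.12% to 23.6%. Few or 0 calls in such short lists lie near these shares. Of the 5 immunoproteasome genes (Psmb8, Psmb9, Psmb10, Psme1 and Psme2), which interferon induces, 0 passed in any comparison by edgeR or DESeq2 and 0 had an unadjusted p under 0.05, and the 2 smallest p belonged to Psme1 in fasted against fed controls (-0.22, edgeR adjusted p = 0.27) and Psmb8 in fasted against fed knockouts (-0.37, edgeR adjusted p = 0.56). Psmb8 ran from 18.2 to 37.4 CPM over the 12 libraries and was at 35.5 CPM in fed control replicate 3. Of 10 other components and regulators 0 passed by edgeR or DESeq2, and those with the smallest p over the 6 main comparisons were Psme3 at 0.24 (edgeR adjusted p = 0.33; unadjusted p under 0.05) in fasted against fed knockouts and the ubiquitin receptor Adrm1 at 0.29 (edgeR adjusted p = 0.32) in fasted against fed controls. In the mean over genotypes both had an unadjusted p under 0.05, with Adrm1 at 0.29 (edgeR adjusted p = 0.12) and Psme3 at 0.18 (edgeR adjusted p = 0.18). Among 8 assembly factors, Psmd9 alone passed in fasted controls, and Psmg1 was at 0.30 (edgeR adjusted p = 0.81) between fed genotypes. Of 4 tested FoxO-linked ubiquitin ligases 0 passed by edgeR or DESeq2, and Fbxo32, a muscle atrophy ligase, was the 1 with an unadjusted p under 0.05, at -0.55 (edgeR adjusted p = 0.21) in fasted against fed controls. Of the cell type marker lists, Sox9, a bile duct cell marker, fell in fasted against fed knockouts by 1.20 on the log2 scale (SE 0.28, edgeR adjusted p = 0.038) and in the mean over genotypes by 0.68 (SE 0.19, edgeR adjusted p = 0.043). Of the 3 tested bile duct markers, 0 were above 0 in knockouts and 2 in the mean over genotypes (median 0.03). The hepatocyte enzyme Cyp2e1 rose in the mean over genotypes (0.64, SE 0.18, edgeR adjusted p = 0.039). It was the 1 of 6 hepatocyte markers above 0 there, and the list's median was -0.17. DESeq2 also called Cyp2e1 in fasted against fed knockouts, the collagen gene Col3a1 in fasted against fed controls (edgeR log2 -2.24, adjusted p = 0.15 in edgeR and 0.035 in DESeq2) and the cell cycle gene Cdk1 in the mean over genotypes (edgeR log2 -1.56, adjusted p = 0.059 in edgeR and 0.014 in DESeq2).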

How the data were processed

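Poly(A) strand-specific RNA libraries of 12 livers were used, grouped by the sample titles, 3 per group. The files deposited by the authors hold unnormalised counts for each Ensembl gene and TPM for the same genes. Per the submitters' processing notes, the tools named, with no role or order, are HISAT2 2.1.0, featureCounts 1.6.3, Trimmomatic 0.38, DESeq2 1.24.0 and bcl2fastq 2.19 on build mm10. Whether counting used strand, how reads with several matches were treated, and the annotation are not given in the sources. The implied TPM length of every member equals its union of exons in GENCODE vM21. Reads shared with near-identical copies could be split, and the pseudogene Psma5-ps held 70 to 118 counts per library. Some members share exonic bases with a gene on the opposite strand, among them Psmb7 with Nek6 (405 bases) and Psmd13 with Sirt3 (342 bases).

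Counts were tested with edgeR 4.0.16 in R 4.3.3 (TMM factors, filterByExpr, robust quasi-likelihood fit of all 12 libraries with 4 group means, 2-sided tests). Benjamini-Hochberg adjustment ran over 15862 genes per comparison, for 6 comparisons and for the mean fasting response, which was added after seeing the data. The code was checked on simulated data. Members and gene lists were chosen with earlier results of these data known. Every member is named; values per library are given for members past the threshold in a comparison or among its 3 smallest p, and list genes are those past the threshold or the 2 with the smallest p. No protein sequence was used here.

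Alternatives were upper-quartile and RLE factors, testing without the filter, at least 1 CPM in 3 libraries, DESeq2 1.42.0, limma 3.58.1 on log2(TPM + 1) and log2(TPM + 0.1) after a filter of 0.5 TPM in 3 libraries, fitting the compared groups alone, a replicate block, protein-coding genes only and leaving out each library in turn.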

Additional observations from a re-analysis of the deposited data

How the results depend on the processing

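Fasting in controls gave 2 members with RLE or upper-quartile factors, both filters on low counts, DESeq2 and protein-coding genes only, 1 (Psma7) with limma on log2(TPM + 1) or log2(TPM + 0.1), and 0 when only the compared groups were fitted. Leaving out 1 library gave 0 to 2, and both calls stayed only without fed control replicate 1. Psma7 ranged from 0.39 to 0.60 (edgeR adjusted p 0.034 to 0.12) and Psmd9 from 0.33 to 0.52 (0.038 to 0.14) over the left-out libraries. Averaged over genotypes the count of 5 became 3 with no filter on low counts, 4 with RLE factors or limma and 6 with upper-quartile factors, DESeq2 or protein-coding genes only, and 2 to 5 on leaving out 1 library. The remaining comparisons kept 0 members in every alternative run. A fit of only the compared groups was not run for the contrasts that use all 4 groups. Scaling moved the median of all genes by less than 0.1 (log2). The factors centre most genes, so this median cannot show how far the members moved. Over the alternatives other than leaving out 1 library, the members' median with fasting was 0.11 to 0.16 in controls. In knockouts it was 0.11 to 0.13.

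The replicate numbers do not pair the samples by label, and same-numbered libraries of different groups deviated with correlations of -0.284 to 0.184 over 18 pairs (median -0.071). With a replicate block, 0 members passed in fasted against fed controls and 2, Psma7 and Psmd9, in the mean over genotypes, and no other count of members changed. Each constitutive subunit had 646 counts or more per library, and each group held 3 livers. The parts of counting error and of differences between livers in the spread were not separated.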
